A study of Mus musculus with 6 samples.

Results

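Antibodies to phosphatidylcholine (PtC), a lipid of cell membranes, are built in the mouse from a few immunoglobulin heavy chain V segments, those of the VH11 and VH12 families. All genes of the deposited table whose names start with Ighv11- or Ighv12- were taken, which gave 3 of the 7834 gene names and 3 of the 100 Ighv genes of the table: Ighv11-1, Ighv11-2 and Ighv12-3. All 3 passed the filter on low values. GENCODE M21 annotates 5 genes in the VH11 and VH12 families, and the remaining 2, Ighv12-1 and Ighv12-2, are pseudogenes that were not analysed here.

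The study compared B-1a and B-1b cells, the CD5+ and CD5- subsets of B-1 cells, sorted from the peritoneal cavity of male C57BL/6 mice. All samples are labelled wild type and carry no treatment, and the age of these mice and the number of mice behind a sample are not stated in the sources used here. Messenger RNA was captured by poly-A and sequenced, and each group has 3 labelled replicates. Values were read as FPKM, fragments scaled to transcript length and to the sum of mapped fragments.

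In most of the table the columns of the replicates numbered 3 follow from the others. B-1b replicate 3 repeated B-1b replicate 1, and B-1a replicate 3 was the mean of B-1a replicates 1 and 2, for all 3 VH11 and VH12 genes. Each group was therefore counted as 2 libraries, replicates 1 and 2. Nothing in the labels says that these came from separate mice, so the errors measure the spread between these libraries. The errors and p-values from limma also draw in part on the spread of other genes. The exact permutation tests used below estimate no spread.

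A B cell joins 1 heavy chain V segment to a D and a J segment, pairs the product with a light chain, and carries that receptor as surface IgM. PtC-binding cells are known as a recurring part of the peritoneal B-1 compartment and have been described chiefly among CD5+ B-1a cells. In them VH11 is typically paired with the kappa segment Igkv14-126 and VH12 with Igkv4-91. RNA levels of V segments were measured here, not binding to PtC. The study also sequenced single peritoneal cells of aged mice lacking ApoE, where B-1a cells used VH12 more often than B-1b cells. In bulk samples, a larger number of cells that use a V segment and more of its RNA per cell cannot be told apart.

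The libraries were checked against the genes of the sort before the groups were compared. Cd5, the surface marker that defines B-1a cells, measured 0.446 and 0.757 FPKM for the B-1a labels against 0.895 and 0.737 FPKM for the B-1b labels, so its RNA did not separate the groups. All of these values are under 1 FPKM and Cd5 did not pass the filter on low values, so they say little about the sort. Ighm, the constant region of IgM, measured 32.5 and 38.7 FPKM for B-1a against 2585 and 2781 FPKM for B-1b (limma, log2 fold change 6.20 with a standard error of 0.17, adjusted p = 0.0106). Summed Ighv FPKM, in contrast, lay between 5926 and 6147 in B-1a and between 5907 and 6892 in B-1b. Ighm was also an exception to the relation of the columns numbered 3. Its B-1a replicate 3 was at 25.6 FPKM, where the mean of B-1a replicates 1 and 2 was 35.6 FPKM. The reason for this was not tested. The groups are named by their labels below.

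The sequences of the 3 V segments show how far their reads can be told apart. The first 300 bases of the V exon are given for Ighv11-1 (chr12:113981886-113982185) and Ighv11-2 (chr12:114048248-114048547), and the last 300 bases for Ighv12-3 (chr12:114366521-114366820), all from GENCODE M21 transcripts on the minus strand of GRCm38 and written 5′ to 3′. In the VH11 pair the capitals mark the bases at which the pair differs. In Ighv12-3 they mark the 3′ end of the exon from the triplet of the conserved cysteine, which ends framework 3, through the bases after it, where the third complementarity-determining region (CDR-H3) begins.

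Ighv11-1: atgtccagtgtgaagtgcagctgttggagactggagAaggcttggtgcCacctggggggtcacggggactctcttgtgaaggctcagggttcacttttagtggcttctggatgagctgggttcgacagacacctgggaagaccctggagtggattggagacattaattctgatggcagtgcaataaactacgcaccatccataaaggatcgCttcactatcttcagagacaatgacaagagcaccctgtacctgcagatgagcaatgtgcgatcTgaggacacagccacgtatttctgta

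Ighv11-2: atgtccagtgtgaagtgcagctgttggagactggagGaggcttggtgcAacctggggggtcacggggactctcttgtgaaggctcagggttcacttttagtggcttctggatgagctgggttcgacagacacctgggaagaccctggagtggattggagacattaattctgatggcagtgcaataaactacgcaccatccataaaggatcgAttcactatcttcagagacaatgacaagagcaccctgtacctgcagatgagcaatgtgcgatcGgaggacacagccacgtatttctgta

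Ighv12-3: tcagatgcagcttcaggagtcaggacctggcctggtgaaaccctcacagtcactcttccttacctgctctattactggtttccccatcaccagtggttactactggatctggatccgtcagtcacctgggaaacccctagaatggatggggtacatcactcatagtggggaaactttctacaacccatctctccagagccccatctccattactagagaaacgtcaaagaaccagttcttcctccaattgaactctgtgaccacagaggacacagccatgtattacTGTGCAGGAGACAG

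Ighv11-1 and Ighv11-2 matched at 98.7% of the 307 aligned bases of the V exon, with 4 mismatches. Of the 50-base windows of the Ighv11-1 transcript, 159 of 304 (52.3%) also occur in Ighv11-2, and 24.8% of its 100-base windows do, so reads of this pair could have been split between them. Ighv12-3 stands apart from both, with 67.0% identity over 291 aligned bases. Its closest relative among the Ighv genes of the table was Ighv3-1, at 78.2% identity, and 0 of its 304 windows of 50 bases occurred in another of the 376 immunoglobulin V genes and pseudogenes of GENCODE M21. The read length is not given in the sources used here.

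All 3 genes consist of 2 exons, a leader exon and the V exon, and lie on the minus strand of chromosome 12. Ighv11-1 spans 113981879 to 113982341, Ighv11-2 spans 114048241 to 114048812 and Ighv12-3 spans 114366521 to 114366954 (GRCm38). The annotated transcript of Ighv11-2 is 461 bases long, against 353 bases for Ighv11-1 and for Ighv12-3, which enters any level that is given per length.

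Ighv12-3 was the VH12 gene behind the largest difference of the 3. It was at 132 FPKM in B-1a replicate 1 and 105 FPKM in B-1a replicate 2, and at 1068 FPKM in B-1b replicate 1 and 551 FPKM in B-1b replicate 2. Both libraries labelled B-1b lay above both labelled B-1a, and the lower B-1b library was still 4.19-fold above the higher B-1a library. The mean of the B-1b libraries, 810 ± 366 FPKM, was 6.86 times that of the B-1a libraries, 118 ± 19.1 FPKM (SD, n = 2 each). On the log2(FPKM + 1) scale limma put B-1b above B-1a by 2.70 with a standard error of 0.38 (adjusted p = 0.202). The B-1b libraries differed from each other by 1.94-fold, against 1.26-fold between the B-1a libraries.

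Ighv11-2, the VH11 gene with most of the family's signal, was at 42.8 and 48.9 FPKM in B-1a replicates 1 and 2 and at 143 and 111 FPKM in B-1b replicates 1 and 2. The groups again did not overlap, with the lower B-1b library 2.26-fold above the higher B-1a library. The means were 45.8 ± 4.36 and 127 ± 22.7 FPKM (SD, n = 2 each), and limma put the log2 fold change at 1.44 with a standard error of 0.20 (adjusted p = 0.1996).

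Ighv11-1, its near-identical copy, was at 2.40 and 2.35 FPKM in B-1a and at 1.497 and 4.61 FPKM in B-1b. Here the B-1b libraries fell on either side of the B-1a libraries, and the log2 fold change of 0.15 was smaller than its standard error of 0.49 (adjusted p = 0.941 from limma). Its sign turned without B-1b replicate 2 (-0.43). Ighv11-2 made up 94.7% and 95.4% of VH11 FPKM in B-1a and 99.0% and 96.0% in B-1b.

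**Figure D1:**
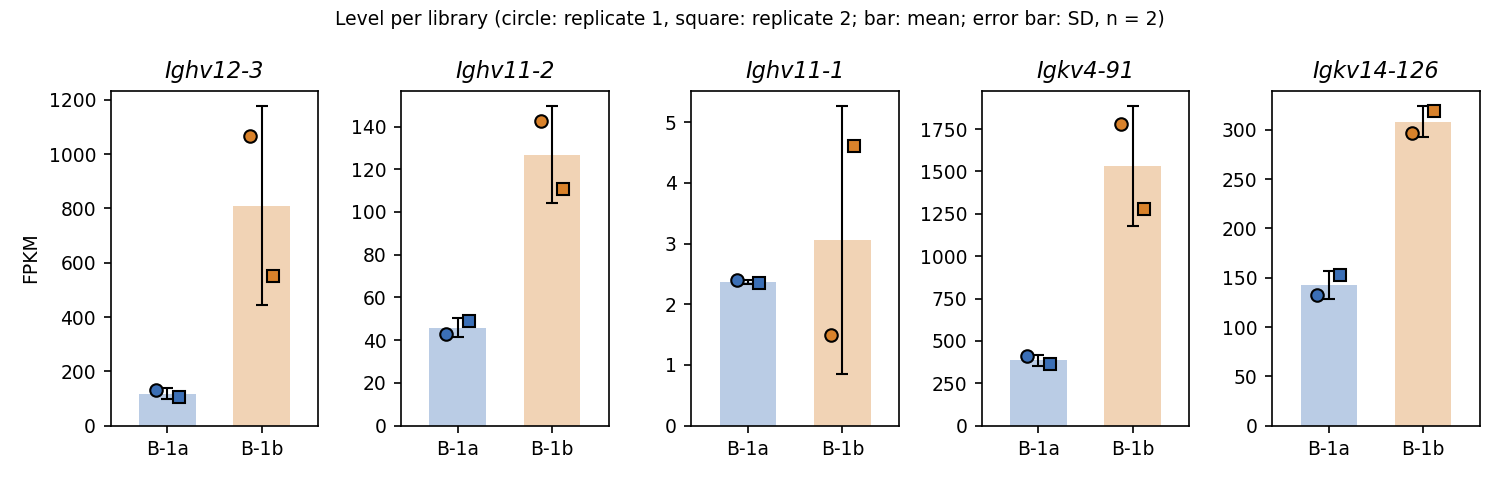
FPKM (vertical axes, each from 0) of the 3 VH11 and VH12 genes and of 2 kappa genes, by group. Circles are replicate 1, squares replicate 2, bars the means and error bars the SD (n = 2). Both B-1b libraries lie above both B-1a libraries in every panel except that of Ighv11-1.

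Of the 3 genes, 2 were higher in both B-1b libraries than in either B-1a library, a pattern that 25.8% of the 7557 genes tested showed. None of the 3 passed an FDR of 0.05 in limma, where 15 genes (0.198% of those tested) did, 12 of them (0.159%) higher in B-1b. At an unadjusted p under 0.05 limma called 2 of the 3, Ighv11-2 and Ighv12-3, and 9.66% of all genes tested. At that threshold it called 40 of the 98 Ighv genes tested, 11 of them higher in B-1b. Of the 98, 3 passed the FDR. The median log2 fold change of the 3 genes was that of Ighv11-2, 1.44, beside 0.05 over all genes tested and -0.44 over the 98 Ighv genes tested. Among these 98, 32 had a positive and 66 a negative fold change, and 50 were lower in both B-1b libraries while 22 were higher in both. Over all 7557 genes tested, 4250 had a positive and 3307 a negative fold change, and 17.3% were lower in both B-1b libraries. By the size of its log2 fold change Ighv12-3 ranked 2nd of the 98, Ighv11-2 ranked 7th and Ighv11-1 ranked 29th.

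As a share of all Ighv FPKM, Ighv12-3 took 2.14% and 1.77% in B-1a and 15.5% and 9.33% in B-1b. Averaged by group, this was 1.95% ± 0.266 for B-1a against 12.4% ± 4.36 for B-1b (SD, n = 2 each). Ighv11-2 took 0.696% and 0.826% in B-1a and 2.07% and 1.87% in B-1b, and Ighv11-1 took at most 0.0781% in any library. Together the 3 genes held 2.88% and 2.63% of Ighv FPKM in B-1a and 17.6% and 11.3% in B-1b, a difference of 11.7 percentage points. For this sum, as for Ighv12-3 and Ighv11-2 alone, the exact two-sided permutation test gave p = 0.333, the smallest value that 2 libraries against 2 can give. For Ighv11-1 the exact p was 1.

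The genes were also ranked among the 100 Ighv genes of each library. Ighv12-3 was 15th and 17th in B-1a and 1st in both B-1b libraries. In B-1b it stood 3.06-fold and 1.71-fold above the next gene, whereas in B-1a it reached 0.351 and 0.254 of the highest gene. Ighv9-3, a VH9 segment, had the highest mean in B-1a, with 375 and 412 FPKM, followed by Ighv1-82 and Ighv6-3. In B-1b the mean of Ighv12-3 was followed by those of Ighv6-3, at 349 and 322 FPKM, and Ighv10-1, at 258 and 283 FPKM.

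Ighv11-2 moved from ranks 46 and 40 in B-1a to ranks 14 and 16 in B-1b. In the order of B-1a means it stood between Ighv2-3 (45.1 and 47.8 FPKM) and Ighv14-1 (47.6 and 37.1 FPKM), whose libraries overlapped with its own. In B-1b it stood between Ighv5-17 (169 and 119 FPKM) and Ighv1-55 (119 and 114 FPKM), again with overlapping libraries. Ighv12-3 in B-1a likewise overlapped with its neighbours Ighv1-80 (138 and 115 FPKM) and Ighv8-8 (115 and 99.1 FPKM). In B-1b it had no neighbour within its spread, since its lower library, at 551 FPKM, was above both libraries of Ighv6-3. Ighv11-1 was among the lowest genes everywhere, at ranks 96 and 92 in B-1a and 96 and 86 in B-1b.

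**Figure D2:**
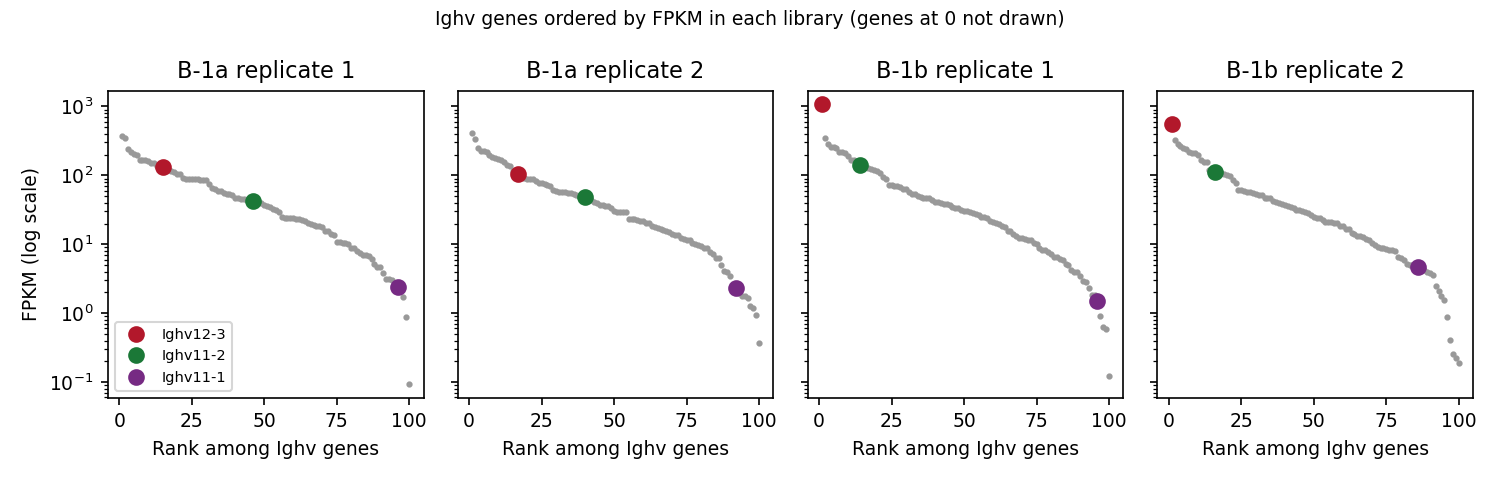
FPKM (vertical axis, log scale) of the Ighv genes ordered from highest to lowest (horizontal axis, rank) in each of the 4 libraries, with the VH11 and VH12 genes in colour and the other Ighv genes in grey. Ighv12-3 moves from ranks 15 and 17 in B-1a to rank 1 in both B-1b libraries, and Ighv11-1 stays near the low end.

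The difference was larger for VH12 than for VH11. The ratio of VH12 to VH11 FPKM was 2.91 and 2.04 in B-1a and 7.41 and 4.78 in B-1b, so the ranges did not overlap (exact two-sided permutation test on the log2 ratio, p = 0.333). Among the 15 VH families of the table, VH12 had the largest ratio of mean shares between B-1b and B-1a, 6.36, and VH11 the second largest, 2.53. VH12 passed from the 11th largest family in both B-1a libraries to the 2nd largest in both B-1b libraries, behind VH1. VH11 was 12th and 13th in B-1a and 12th in both B-1b libraries. The share of 4 families was higher in both B-1b libraries (VH10, VH11, VH12 and VH13), and that of 8 families was lower in both. These are parts of 1 total, so a larger share of VH12 lowers the others. Summed Ighv FPKM without VH11 and VH12 was 5970 and 5770 in B-1a and 5679 and 5240 in B-1b.

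**Figure D3:**
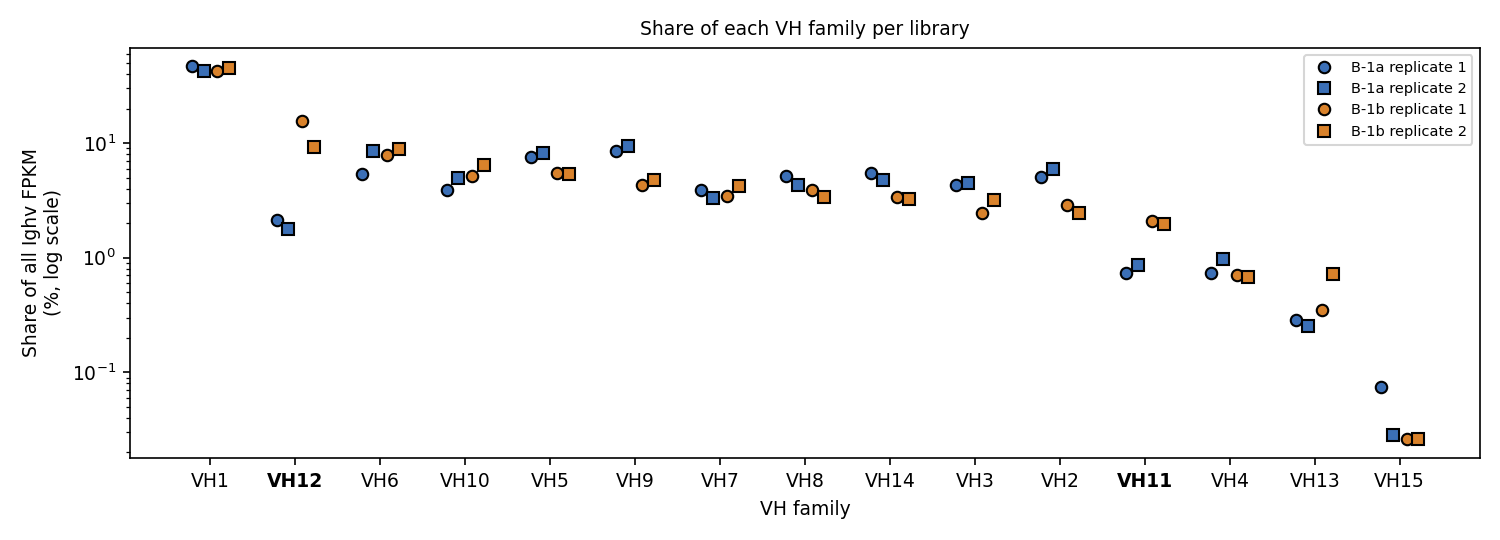
Share of all Ighv FPKM (vertical axis, percent, log scale) of the 15 VH families, ordered by their mean share in B-1b. Circles are replicate 1 and squares replicate 2, in blue for B-1a and orange for B-1b. VH12 is at 2.14% and 1.77% in B-1a and at 15.5% and 9.33% in B-1b.

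The kappa segments known as partners of these heavy chains were higher in the same libraries. Igkv4-91, the partner of VH12, lies on chromosome 6 from 68768555 to 68769103. It was at 408 and 362 FPKM in B-1a replicates 1 and 2 and at 1780 and 1281 FPKM in B-1b replicates 1 and 2. Both B-1b libraries were above both B-1a libraries, and limma gave a log2 difference of 1.97 with a standard error of 0.24 (adjusted p = 0.175). Igkv14-126, the partner of VH11, lies on the same chromosome from 67896172 to 67896642. It measured 133 and 153 FPKM in B-1a and at 297 and 319 FPKM in B-1b. Its groups did not overlap either (limma, log2 difference 1.10 with a standard error of 0.16, adjusted p = 0.210). GENCODE M21 annotates Igkv14-126 as a V gene, while RefSeq lists it as a V segment pseudogene.

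Among the 99 Igkv genes, Igkv4-91 was 6th in both B-1a libraries and 1st in both B-1b libraries, and Igkv14-126 went from ranks 24 and 20 to ranks 6 and 7. Their joint share of Igkv FPKM was 5.14% and 5.30% in B-1a and 25.9% and 17.8% in B-1b. Most other kappa genes had the opposite sign. Of 96 Igkv genes tested, 79 had a negative fold change, with a median of -0.50 beside 0.05 over all genes tested. Of the 96, 53 were lower and 6 higher in both B-1b libraries, against 17.3% and 25.8% of all genes tested. Summed Igkv FPKM without these 2 genes was 9993 and 9213 in B-1a and 5955 and 7410 in B-1b.

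The ratio of each kappa gene to its heavy chain partner was lower in B-1b. Igkv4-91 was 3.10 and 3.46 times Ighv12-3 in B-1a and 1.67 and 2.32 times Ighv12-3 in B-1b. Igkv14-126 was 3.11 and 3.13 times Ighv11-2 in B-1a and 2.08 and 2.88 times in B-1b. B-1b replicate 1, the library with the highest Ighv12-3, also had the highest Igkv4-91. For the VH11 pair the B-1b libraries were in opposite order, with Ighv11-2 higher in replicate 1 and Igkv14-126 higher in replicate 2.

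**Figure D4:**
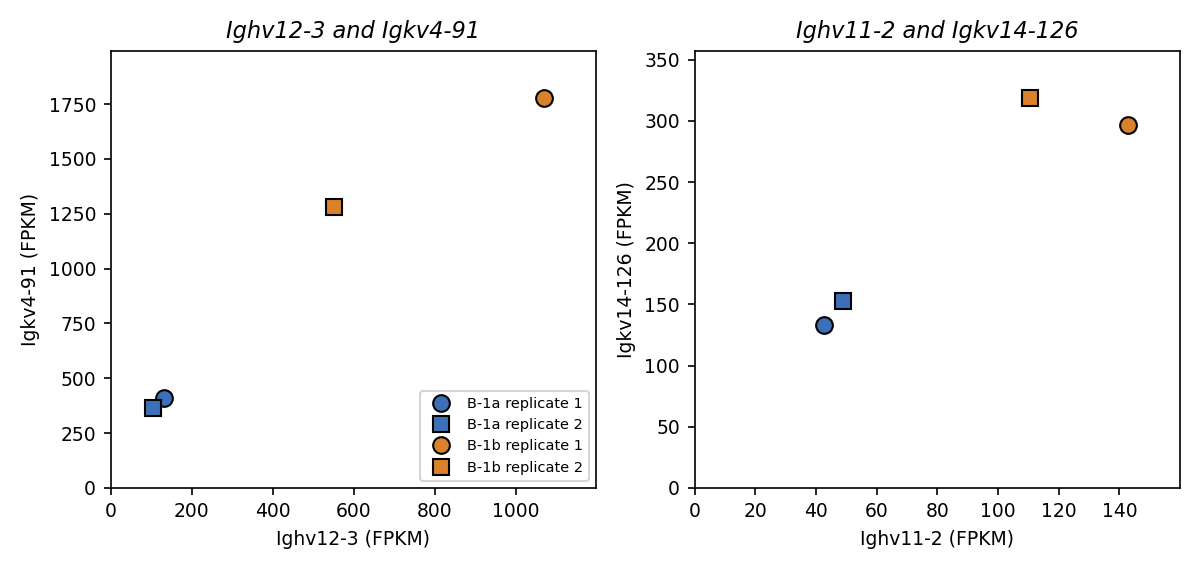
FPKM of Igkv4-91 against Ighv12-3 (left) and of Igkv14-126 against Ighv11-2 (right), both axes linear from 0, with 1 point per library. In both panels the 2 B-1b libraries (orange) lie above and to the right of the 2 B-1a libraries (blue).

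The V genes with the most similar profile were found by the Euclidean distance between centred log2(FPKM + 1) values over the 4 libraries, among the 196 heavy, kappa and lambda V genes tested. Igkv4-91 was the nearest gene to Ighv12-3, at a distance of 0.812, followed by Ighv1-54 (0.881) and Ighv1-22 (0.900). Those 2 VH1 segments had log2 fold changes of 2.18 and 2.22 (adjusted p = 0.0444 and 0.0443 from limma). The nearest genes to Ighv11-2 were Ighv8-4 (0.402), Ighv1-71 (0.412) and Igkv14-126 (0.470), with Igkv4-91 in the 4th place. Ighv8-4 was a low gene, with 5.96 FPKM in its highest library. Ighv11-1 had Igkv15-103, Igkv1-110 and Igkv8-28 as its nearest genes, all with log2 fold changes between -0.19 and 0.02, and the kappa partners of PtC antibodies were at the 92nd and 183rd places. With 4 libraries these distances are a description.

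The values of neighbouring V segments in the heavy chain locus were read beside those of the 3 genes. Ighv11-1 and Ighv11-2 start 66.4 kb from each other, and Ighv12-3 starts 318 kb further from Ighm than Ighv11-2. Among the genes tested, Ighv11-2 is flanked by Ighv4-2 (log2 fold change -0.34, standard error 0.45) and Ighv14-3 (-1.29, standard error 0.15). Ighv14-3 has the opposite sign. Ighv4-2 was low, at most 2.67 FPKM, and its groups overlapped, so its sign is not settled. Ighv12-3 is flanked by Ighv13-2, the VH13 gene of the table, with mean values of 16.3 FPKM for B-1a and 33.3 FPKM for B-1b (0.94), and by Ighv6-3 (0.35), with adjusted p-values of 0.4996 and 0.729 from limma. Ighv11-1 lies between Ighv3-1 (-1.70, adjusted p = 0.107 from limma) and Ighv14-2 (-0.42).

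**Figure D5:**
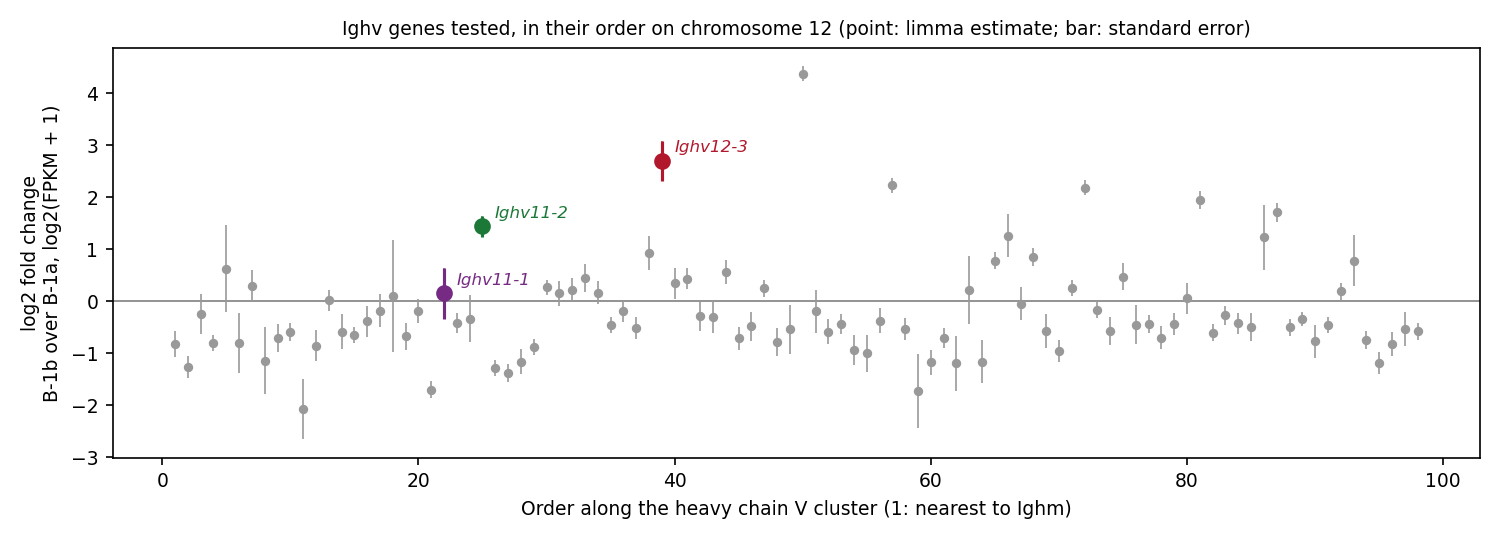
Log2 fold change between the groups, positive where B-1b is higher, on the log2(FPKM + 1) scale (vertical axis) for the 98 Ighv genes tested, in their order on chromosome 12 from the Ighm side (horizontal axis). Points are limma estimates and bars standard errors. Ighv12-3 (2.70) and Ighv11-2 (1.44) stand above the genes directly beside them. The highest point of the locus is Ighv1-9 (4.37).

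The V segment is read with the rest of the IgM receptor. Of 10 genes on a list of IgM and receptor components, all were tested, and limma gave 1 an FDR below 0.05 (0.198% of all genes tested), Ighm, which was higher in B-1b. In the list 6 genes were lower and 3 higher in both B-1b libraries, against 17.3% and 25.8% of all genes tested. At an unadjusted p under 0.05 limma called 4 of the 10 (9.66% of all genes tested), Ighm higher and Ighd, Iglc1 and Iglc3 lower in B-1b. The kappa constant gene Igkc was at 11117 and 9009 FPKM in B-1a and at 7702 and 8943 FPKM in B-1b. Cd79a, a signalling chain of the receptor, was at 2082 and 2219 FPKM in B-1a and at 1384 and 1646 FPKM in B-1b, while its partner Cd79b was at 1093 and 1077 FPKM and at 1473 and 1213 FPKM. Ighd, the constant region of IgD, was lower in both B-1b libraries (436 and 330 against 214 and 241 FPKM, adjusted p = 0.410 from limma). Per unit of Ighm, summed Ighv FPKM was 189 and 153 in B-1a and 2.67 and 2.12 in B-1b, whereas the ratio of summed Igkv to Igkc lay between 0.948 and 1.08 in all 4 libraries.

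A list of 9 genes known from B-1 cells had 7 in the table and 6 tested, of which 5 were higher in both B-1b libraries and 0 passed the FDR in limma (3 at an unadjusted p under 0.05, all higher in B-1b). Over all genes tested, 25.8% were higher in both B-1b libraries and 9.66% had an unadjusted p under 0.05. Ctla4, an inhibitory receptor, was at 6.78 and 4.35 FPKM in B-1a and at 21.1 and 14.6 FPKM in B-1b (limma, log2 fold change 1.52, adjusted p = 0.288). Bhlhe41, a transcription factor needed for B-1a cells, was at 0.775 and 1.23 FPKM in B-1a and at 4.87 and 2.68 FPKM in B-1b (1.22, adjusted p = 0.477 from limma). Itgam, the integrin chain CD11b, which macrophages express too, was at 17.6 and 33.4 FPKM in B-1a and at 56.7 and 48.0 FPKM in B-1b (limma, log2 fold change 1.07, adjusted p = 0.477). All 3 had their highest value in B-1b replicate 1, the library with the highest Ighv12-3. Siglecg, an inhibitory lectin of B-1 cells, was at 19.9 and 17.7 FPKM and at 24.6 and 21.2 FPKM. Spn, the gene of CD43, did not separate the groups (2.37 and 2.64 against 4.09 and 1.17 FPKM).

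Markers of other peritoneal cells were read in the same libraries. Macrophage markers (6 of 8 in the table) summed to 4485 and 3384 FPKM in B-1a and to 4142 and 7060 FPKM in B-1b, most of it Lyz2. Of the 6, 4 were higher in both B-1b libraries, against 25.8% of all genes tested, and limma gave 3 an unadjusted p under 0.05 (9.66% of all genes) and 0 an FDR below 0.05. These 3 were higher in B-1b: Adgre1 (51.1 and 56.0 against 90.4 and 101 FPKM), Csf1r (28.5 and 22.8 against 39.7 and 35.1 FPKM) and Cd68 (38.8 and 35.5 against 53.2 and 52.7 FPKM). T cell markers (5 of 9) summed to 9.24 to 15.2 FPKM, and 0 of the 5 separated the groups. B-2 cell markers (6 of 6) summed to 799 and 647 FPKM in B-1a and to 552 and 535 FPKM in B-1b, a sum of which Ighd, given above, is a large part. Of these 6, Ighd, Il4ra and Cd55 were lower in both B-1b libraries, while Fcer2a, the gene of CD23, was higher in both (9.71 and 11.5 against 17.6 and 13.1 FPKM). Over all genes tested, 17.3% were lower and 25.8% higher in both B-1b libraries. Plasma cell markers (7 of 8) summed to 398 and 413 FPKM in B-1a and to 272 and 405 FPKM in B-1b. Of the 6 tested, 1 was higher and 3 lower in both B-1b libraries, against 25.8% and 17.3% of all genes tested. The only value at 0 on these lists was that of the B-2 marker Cr2, in B-1a replicate 2 and B-1b replicate 2. The part of such cells in the VH11 and VH12 levels was not tested.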

How the data were processed

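RNA sequencing of B-1a and B-1b cells of the peritoneal cavity was used, with 6 deposited columns. Per the labels, HISAT2 and StringTie were run by the authors on the GRCm38 build; versions and annotation were not stated. The deposited values were read as FPKM, an inference from their fractional form: the table names no unit, and its file name calls them raw read counts; depth is unknown and no counting error can be given. Reads were aligned to germline V segments, and how junctions and somatic changes affected the values was not tested. Rows of a name were summed. B-1a replicate 3 equalled the mean of replicates 1 and 2 (relative tolerance 1e-06) in 13710 of 13747 rows, B-1b replicate 3 equalled replicate 1 in 13722 rows, and neither was used. The table had 0 further sample columns.

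The filter kept genes that reached 1 FPKM in 2 or more of the 4 libraries, and these were compared on log2(FPKM + 1), which understates the change of low genes, with limma 3.58.1 (R 4.3.3, intensity trend, Benjamini-Hochberg), after a check on simulated data. Shares were compared by exact permutation tests in scipy 1.17.1, and V exons were aligned with Biopython 1.88. Named genes are the 3 VH11 and VH12 genes, their 2 kappa partners, the lists given, the 3 nearest V gene profiles, the 3 highest Ighv genes and rank neighbours; further Ighv genes are named as neighbours in the locus. The members and lists were chosen with earlier results of these data known. Alternatives were a smaller pseudocount, other filters, scalings and denominators, no intensity trend, a replicate block, other uses of the replicates numbered 3, and leaving out each library. No batch is given in the labels. A listed gene is not reported here.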

Additional observations from a re-analysis of the deposited data

How the results depend on the processing

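The log2 fold changes of Ighv12-3 and Ighv11-2 kept their sign in all 13 alternatives and so did those of their kappa partners. With each library left out in turn they ranged from 2.22 to 3.18 for Ighv12-3 and from 1.26 to 1.62 for Ighv11-2. With all 4 libraries in the fit, and apart from the 6 columns counted as libraries, adjusted p-values from limma stayed between 0.179 and 0.244 for Ighv12-3 and between 0.193 and 0.409 for Ighv11-2. With all 6 columns, Ighv12-3 was at 2.86 (adjusted p = 0.00464), Ighv11-2 at 1.498 (adjusted p = 0.00248) and Ighv11-1 at -0.0434 on the log2 scale, but columns built from the others understate the spread. The value of Ighv11-1 was -0.43 without B-1b replicate 2 and ranged up to 0.74 with single libraries left out, and its share difference ranged from -0.0176 to 0.0388 percentage points. The share difference of Ighv12-3 ranged from 7.38 to 13.5 percentage points with single libraries left out, and the shares of Ighv11-2, VH11 and VH12 kept their sign with a library left out and under 3 other denominators, as did the VH12 to VH11 ratio with a library left out. Kappa and family shares were not recomputed.

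Genes past the FDR, 15 in the values reported, came to 7 without the filter, 8 with equal summed Ighv FPKM, 9 without the intensity trend, 1259 with all 6 columns, and 0 with any library left out (lowest 0, highest 0), where 538 to 1127 genes had an unadjusted p under 0.05. Those fits set 1 library against 2, take the spread from the other group alone and assume that the lone library varies like it, so their calls say little about stability. The filter at 10 FPKM removed Ighv11-1. The labels number the replicates alike in both groups without saying what the number marks. With the replicate block, limma called 0 genes (614 at an unadjusted p under 0.05), and Ighv12-3 was at 2.70 with an adjusted p of 0.228. The differences between replicates 1 and 2 of the groups had a Pearson's r of 0.00124 over 7557 genes, which are not independent.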
